A study of Mus musculus with 4 samples.

Results

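The Rab27 and Rab3 effectors of granule transport were followed in RNA sequencing libraries of mouse pancreatic islets, the hormone-secreting cell clusters of the pancreas. The members were the rows of the deposited count table for 10 named genes, namely the 5 synaptotagmin-like genes Sytl1 to Sytl5, Rph3al (which encodes Noc2), Exph5, Mlph (melanophilin), Myrip and the motor gene Myo5a. All 10 were found among the 52636 genes of the table, and all 10 were among the 16924 genes with enough counts to be tested. The study set 2 libraries of control islets from wild-type mice beside 2 libraries of islets from mice hemizygous for a loss of Tspan7 (Tspan7 y/-), which encodes a tetraspanin membrane protein and lies on the X chromosome. The labels call the animals knockout and describe no further allele, treatment, strain or age. The loss is not limited to one cell type by any label, and no label ties a library to 1 animal or to a pool, so the p-values measure only the spread between these libraries, which may be technical. The title of the study names beta-cell exocytosis, the calcium-triggered fusion of insulin granules, as its subject.

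Secretory granules carry the small GTPases Rab27 and Rab3 on their surface. In the GTP-bound state these GTPases recruit effectors that tether the granule, either to the plasma membrane or to the actin network beneath it. The synaptotagmin-like proteins pair an amino-terminal Rab27-binding domain with tandem C2 domains, which bind membrane lipids, and so link granules to the plasma membrane. The Slac2 proteins melanophilin, exophilin-5 and Myrip have the same kind of Rab27-binding domain without C2 domains, and melanophilin and Myrip connect it to myosin Va and actin. Noc2 resembles the Rab-binding part of rabphilin and binds Rab3 and Rab27.

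Library totals ran from 7855665 to 9377220 counts, and 3 counts, taken as the detection floor, corresponded to 0.312 to 0.398 CPM, the unit used for counts scaled to library size and composition. Tspan7 had 1924 and 1795 counts in the control libraries against 3 and 2 in the knockout libraries, so the targeted gene matched the labels in all 4. Islet markers were abundant in every library, with 7 beta-cell markers summing to between 13876 and 19009 CPM and 5 alpha-cell markers to between 6385 and 8340 CPM. The 5 markers of acinar cells, the enzyme-secreting cells around the islets, stood far apart between libraries of the same group, at 1520 and 37.9 CPM in control replicates 1 and 2 and at 667 and 3140 CPM in knockout replicates 1 and 2. Duct markers summed to between 139 and 180 CPM, nearly all from Krt7, and those of endothelial cells to between 312 and 377. Macrophage markers summed to 47.4 and 39.4 CPM in control and 34.0 and 26.6 CPM in knockout islets, while the 3 lymphocyte markers stayed at or below 0.638 CPM in sum, with Ms4a1 at 0 counts throughout.

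Per kilobase of exon, the effectors spanned a 361-fold range, with Sytl4 at the top and Sytl3, which had 5 to 14 counts per library, at the bottom. Sytl4, which encodes granuphilin, the effector that docks insulin granules at the plasma membrane, measured 82.5 ± 8.54 CPM per kilobase (mean ± SD over the 4 libraries). That level was above 97.7% of the 16881 tested genes with a known length. Sytl4 alone made up 44.6% of the summed level per kilobase of the 10 effectors. Sytl5 followed at 35.8 ± 4.38 CPM per kilobase and Rph3al at 26.1 ± 4.81. Exph5 stood at 16.9 ± 2.48 and Myo5a at 14.3 ± 0.442 on the same scale. These 5 genes lay above at least 77.5% of the ranked genes, and the remaining 5 lay below the middle of the ranking. Sytl1 measured 4.16 ± 0.749 CPM per kilobase, Mlph 3.05 ± 0.797, Myrip 1.31 ± 0.170, Sytl2 0.633 ± 0.321 and Sytl3 0.229 ± 0.0824.

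Neighbours in this order did not all differ beyond the spread of the libraries. The library values overlapped between Sytl5 and Rph3al, between Rph3al and Exph5, and between Sytl1 and Mlph. On merged exons Exph5 and Myo5a were barely apart, with the lowest Exph5 library at 14.86 CPM per kilobase and the highest Myo5a library at 14.82. Lengths came from all exons of a gene merged. With the longest protein-coding transcript as the length, Rph3al (45.3) passed Sytl5 (35.8) and Sytl2 (2.30) passed Myrip (1.47), while the other places were the same. On that length the range from Sytl4 to Sytl3 was 236-fold, and Exph5 (29.9) and Myo5a (18.0) were further apart. Among the GTPases that the effectors bind, Rab27a was the most abundant at 75.8 CPM per kilobase and its library values overlapped those of Sytl4. Rab3d stood at 38.7, Rab3a at 18.8, Rab3b at 10.5, Rab3c at 1.52 and Rab27b at 0.418 CPM per kilobase.

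**Figure D1:**
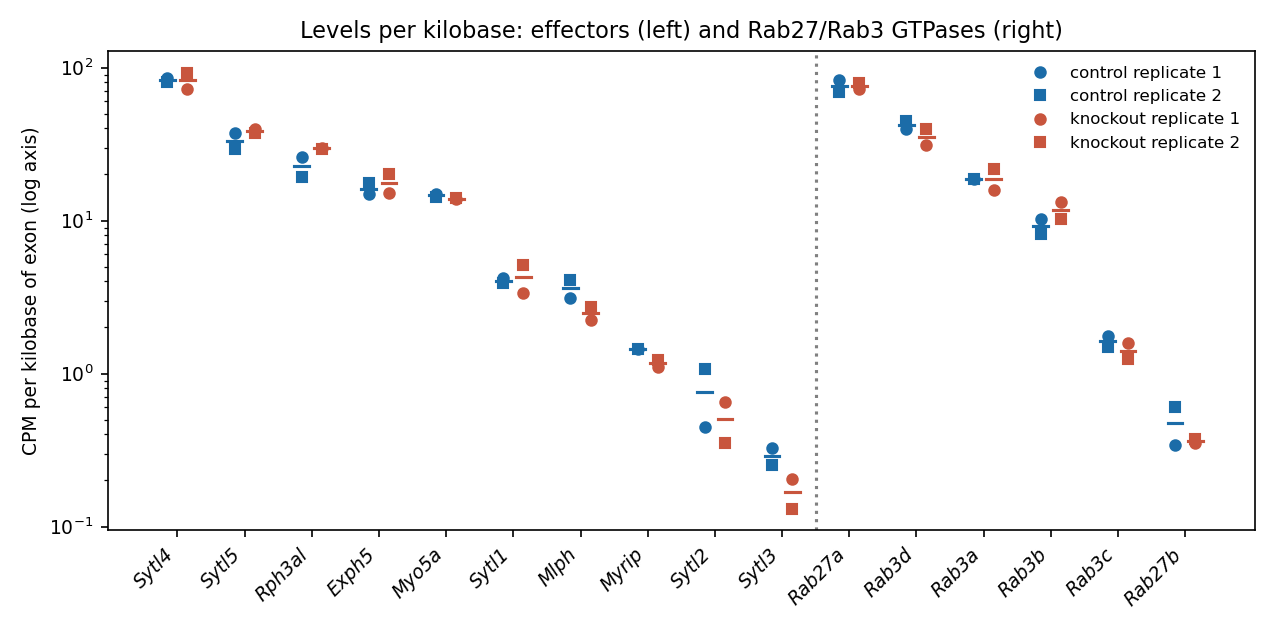
CPM per kilobase of merged exon (log axis) for the 10 effector genes, in order of level, and for 6 Rab27 and Rab3 genes to the right of the dotted line. Points are single libraries and short bars are means of 2 libraries; Sytl4 and Rab27a share the top of the range, and 5 effectors lie below 6 CPM per kilobase in every library.

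The proximal promoters of these genes differed widely in CpG content, and 3 are shown. These are Sytl4 and Sytl5, at the top of the order on merged exons, and Myrip, whose window held the most CpG sites. The RefSeq table for GRCm38.p6 held 9 of the 10 effectors. It was matched by symbol and is of another build than the GRCm39 of the counts. The 250 bases before the annotated start are printed 5′ to 3′ on the strand of the gene, with each CpG site in capitals. Sytl4 lies at chrX:133981813-133982062 (minus strand), Sytl5 at chrX:9885371-9885620 (plus strand) and Myrip at chr9:120303823-120304072 (plus strand).
Sytl4: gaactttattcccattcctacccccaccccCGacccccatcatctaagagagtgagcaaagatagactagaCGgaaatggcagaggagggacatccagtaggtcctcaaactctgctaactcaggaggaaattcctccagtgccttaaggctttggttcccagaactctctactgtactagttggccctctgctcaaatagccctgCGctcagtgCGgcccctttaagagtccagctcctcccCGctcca
Sytl5: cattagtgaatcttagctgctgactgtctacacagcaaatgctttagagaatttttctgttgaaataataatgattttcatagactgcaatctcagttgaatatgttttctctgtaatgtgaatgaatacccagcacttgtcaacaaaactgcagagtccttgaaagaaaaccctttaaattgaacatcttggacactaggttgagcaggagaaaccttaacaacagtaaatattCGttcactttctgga
Myrip: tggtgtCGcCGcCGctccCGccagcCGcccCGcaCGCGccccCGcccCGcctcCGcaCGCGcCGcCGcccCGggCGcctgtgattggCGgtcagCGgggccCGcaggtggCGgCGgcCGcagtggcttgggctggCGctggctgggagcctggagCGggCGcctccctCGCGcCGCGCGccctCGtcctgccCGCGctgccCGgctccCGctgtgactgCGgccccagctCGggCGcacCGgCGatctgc

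The Sytl5 window held 1 CpG site, more than 7.9% of the 32851 promoters in the table, and the Sytl4 window held 5, against a median of 6 over all promoters. The Myrip window held 41, more than 98.9% of them, although Myrip was measured at a level below those of Sytl4 and Sytl5 in every library. Of the other windows, Rph3al held 5 sites, Sytl1 held 4, Sytl3 held 3, Exph5 held 9, Mlph held 14 and Myo5a held 34. High and low CpG counts thus both occurred among the abundant and among the scarce effectors.

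None of the 10 effector genes passed the threshold between knockout and control islets. Tspan7 was the only gene called among 16924 by edgeR's quasi-likelihood test (adjusted p under 0.05), a background of 0.00591%. The effectors' adjusted p-values in that test were all at least 0.9997, and DESeq2 and limma-voom also called 0 of the 10. At an unadjusted edgeR p under 0.05 there was 1 effector higher (Rph3al) and 1 lower (Mlph). That is 2 of 10 beside 3.51% of all tested genes (1.55% higher and 1.96% lower). Unadjusted p-values for Rph3al and Mlph were 0.0691 and 0.0686 with DESeq2, and 0.0392 and 0.0307 with limma-voom. Of the effectors' log2 fold changes in edgeR 5 were positive and 5 negative, and their median was -0.03, beside 0.003 over all tested genes. The median size of the change, sign aside, was 0.26 for the effectors and 0.15 for all tested genes. Because whole islets were sequenced, fewer cells of a type and less RNA per cell cannot be told apart in any of these values.

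**Figure D2:**
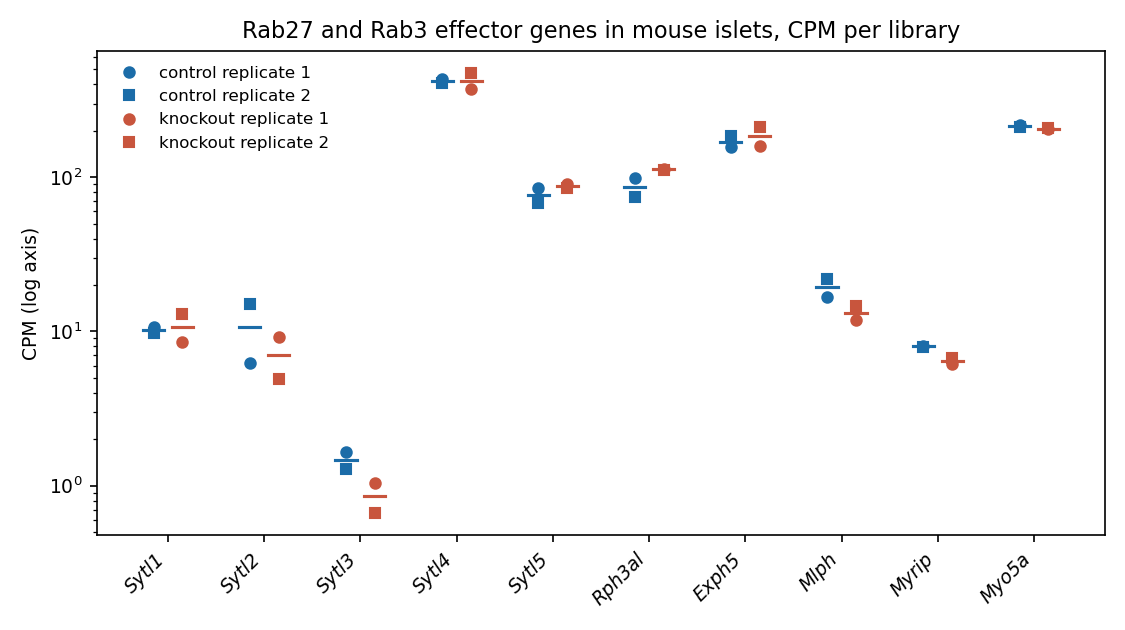
CPM (log axis) of each effector gene in each of the 4 libraries, with the mean of each group as a short bar. The groups lie apart for Rph3al (knockout above) and for Sytl3, Mlph, Myrip and Myo5a (knockout below) and overlap for the remaining 5 genes. Among all tested genes, knockout lay above control in 15.3% and below it in 15.0%.

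The docking effector Sytl4 measured 436 and 410 CPM in control replicates 1 and 2, and 371 and 475 CPM in knockout replicates 1 and 2. The knockout libraries enclosed both control libraries, and the group means were 423 ± 18.7 and 423 ± 73.5 CPM (SD, n = 2 each). The log2 fold change was 0.001 ± 0.15 (SE), and its 95% confidence interval (CI) allowed a knockout level between 0.784 and 1.28 times that of control. The order of the libraries for Sytl4 was also that of the summed beta-cell markers. The sum measured 17456, 15141, 13876 and 19009 CPM in the same sequence of libraries. Singly, Ins1, Ins2, Iapp and G6pc2 had this order, while Slc2a2, Ucn3 and Mafa did not. As a share of their own 4-library means, Sytl4 ran from 87.8% to 112% and the beta-cell sum from 84.8% to 116%. Knockout replicate 1 was lowest and knockout replicate 2 highest for both. The part of beta-cell content in the Sytl4 values was not tested. The sign turned with the libraries used: leaving out knockout replicate 2 gave -0.19, and leaving out knockout replicate 1 gave 0.17.

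Sytl5, the synaptotagmin-like gene that shares a stretch of the X chromosome with Tspan7, with 3 protein-coding genes (Srpx, Rpgr and Otc) between them in the GRCm38 annotation, was present in both groups. The control libraries gave 722 and 637 counts and the knockout libraries 874 and 644, or 85.4 and 67.7 CPM against 90.8 and 85.4 CPM. Control replicate 2 was the low library, and control replicate 1 was level with knockout replicate 2. The log2 fold change was 0.20 ± 0.16, with a CI for the knockout level of 0.898 to 1.47 times control. Leaving out control replicate 2 gave 0.04, and leaving out control replicate 1 gave 0.38.

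The remaining synaptotagmin-like genes were scarce, and their values scattered within the groups. Sytl2, which encodes a lipid-binding tether known from melanosomes and from glucagon granules of alpha cells, measured 6.27 and 15.0 CPM in control and 9.14 and 4.90 CPM in knockout islets. Its control libraries differed by 2.39-fold from each other, more than the groups did, and control replicate 2 was the highest. The log2 fold change was -0.59 ± 0.47, with a CI of -1.73 to 0.56, and it became 0.18 when control replicate 2 was left out and -1.12 when knockout replicate 1 was left out. The library order for Sytl2 was the reverse of that for the summed acinar markers. Control replicate 2 was highest for Sytl2 and lowest for the sum, and knockout replicate 2 the opposite. Summed duct markers, nearly all from Krt7, had the same order of libraries as Sytl2. They stood at 150 and 180 CPM in control and 158 and 139 CPM in knockout islets. A part of acinar or duct content in the Sytl2 values was not tested. Summed alpha-cell markers had another order, highest in control replicate 1 (8340 CPM) and lowest in control replicate 2 (6385 CPM).

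Sytl1, which encodes a phosphoinositide-binding tether also called JFC1, gave 10.6 and 9.78 CPM in control and 8.52 and 13.0 CPM in knockout islets. The groups overlapped, and the knockout libraries lay on either side of the control libraries. The order of the libraries was that of Sytl4 and of the summed beta-cell markers. Its log2 fold change of 0.06 ± 0.26 became -0.26 without knockout replicate 2 and 0.35 without knockout replicate 1. Sytl3, known from the lytic granules of cytotoxic T cells, was close to the floor, with 14 and 12 counts in the control group and 10 and 5 in the knockout group. Each knockout library was lower than either control library, at 1.04 and 0.663 against 1.66 and 1.28 CPM. Summed macrophage markers (5 genes) had the same order of libraries. They stood at 34.0 and 26.6 CPM in knockout against 47.4 and 39.4 CPM in control islets. Singly, Ptprc and Adgre1 had that order, while Csf1r, Lyz2 and Cd68 did not. Csf1r was higher in knockout replicate 1 (18.7 CPM) than in control replicate 2 (14.1 CPM). The part of macrophage content in the Sytl3 values was not tested. The ratio of summed counts was 0.600. Its exact binomial 95% interval for counting error only, 0.295 to 1.18, included equal levels. The fitted log2 fold change was -0.74 ± 0.51, and it was -1.12 without knockout replicate 1 and -0.49 without knockout replicate 2. Sytl3 overlaps Ezr on the opposite strand, a gene at 80.5 to 118 CPM, and the use of strand in counting is not given in the sources used here.

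**Figure D3:**
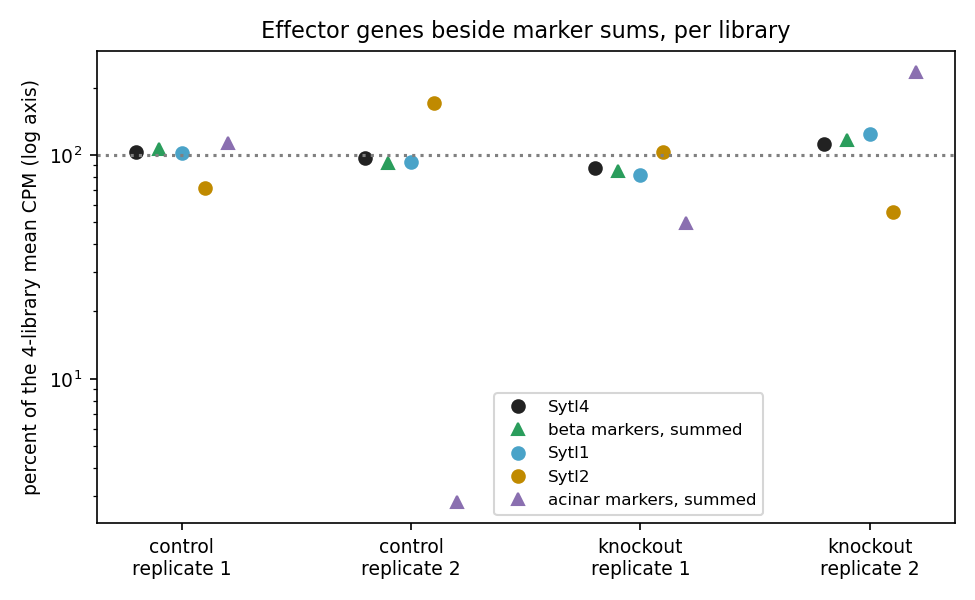
CPM of Sytl4, Sytl1 and Sytl2 and of the summed beta-cell and acinar markers in each library, each as a percent of its own mean over the 4 libraries (log axis). Sytl4 and the beta-cell sum stay between 84.8% and 116% and share the same order of libraries. The acinar sum runs from 2.83% to 234% and Sytl2 runs opposite to it. Summed duct markers, not shown, have the order of Sytl2.

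Rph3al had the highest positive log2 fold change of the 10. Its product Noc2 binds Rab3 and Rab27 on granules and is needed for regulated secretion in endocrine and exocrine glands. It measured 98.9 and 74.0 CPM in control and 114 and 112 CPM in knockout islets. Both knockout libraries were above both control libraries, an arrangement found for 15.3% of all tested genes. The knockout libraries differed by 1.02-fold from each other. The control libraries differed by 1.34-fold, a gap of 0.42 on the log2 scale that was larger than the change between the groups. The log2 fold change was 0.39 ± 0.17, with a CI for the knockout level of 1.004 to 1.70 times control. The edgeR p of 0.0476 before adjustment became an adjusted p of 0.9997. Leaving out control replicate 1 gave 0.61, with an adjusted p of 0.316 in edgeR, and leaving out control replicate 2 gave 0.19. The antisense gene Gm16075, which overlaps Rph3al, had 2 to 6 counts per library against 696 to 1095 for Rph3al. Zyx, the gene of zyxin, an actin-binding partner of Noc2, stood at 40.5 and 26.7 CPM in control and 45.7 and 36.1 CPM in knockout islets, with control replicate 2 lowest as for Rph3al.

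None of the 3 Slac2 genes passed the threshold. Mlph, whose product couples Rab27a to myosin Va on melanosomes, measured 16.8 and 22.0 CPM in control and 11.9 and 14.6 CPM in knockout islets. Each knockout library was lower than either control library, and control replicate 2 was the highest. Summed endothelial markers (4 genes) had the same order of libraries. They stood at 356 and 377 CPM in control and 312 and 354 CPM in knockout islets. Singly, Pecam1 and Flt1 had that order, while Kdr and Cdh5 did not. Kdr was highest in knockout replicate 2 (124 CPM) and Cdh5 was lowest there (39.6 CPM). The part of endothelial content in the Mlph values was not tested. The log2 fold change was -0.55 ± 0.21 (CI -1.04 to -0.07). The edgeR p of 0.0299 before adjustment became an adjusted p of 0.9997. The change was -0.35 without control replicate 2. Myrip, which links Rab27 to myosin Va, myosin VIIa and actin and binds protein kinase A, gave 8.05 and 7.97 CPM in control and 6.13 and 6.76 CPM in knockout islets. The groups lay apart, with 68 and 75 counts against 59 and 51. The processed pseudogenes that overlap Myrip and Myo5a had at most 4 and 15 counts in a library. The counting interval of the ratio, 0.618 to 1.03, included equal levels, and the log2 fold change was -0.32 ± 0.24.

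Exph5, the most abundant Slac2 gene per kilobase, encodes a large Rab27 effector also called Slac2-b. It measured 156 and 184 CPM in control and 160 and 212 CPM in knockout islets, and replicate 2 was the higher library in both groups. The groups overlapped, and the CI put the knockout level between 0.828 and 1.44 times control. The log2 fold change of 0.13 ± 0.17 became -0.09 without knockout replicate 2 and 0.32 without knockout replicate 1.

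Myo5a, the actin-based motor that carries granules and melanosomes, was the steadiest of the 10. It measured 219 and 213 CPM in control and 204 and 208 CPM in knockout islets. Libraries of 1 group differed by 1.03-fold in control and 1.02-fold in knockout. Both knockout libraries were below both control libraries, but the log2 fold change was -0.07 ± 0.13 and the CI allowed a knockout level between 0.778 and 1.17 times control.

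In all, 5 of 10 effectors had groups that did not overlap, 1 with knockout above and 4 with knockout below control (Sytl3, Mlph, Myrip and Myo5a). The same arrangements held for 15.3% and 15.0% of all tested genes. In those same 4 lower genes the fitted change was larger than the gaps between libraries of either group, as it was for 18.8% of all tested genes, and in the other 6 effectors it was not larger than at least one of these gaps. The summed CPM of the 10 effectors was 1039 and 1004 in control and 976 and 1133 in knockout libraries, so the knockout libraries lay on either side of the control libraries.

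**Figure D4:**
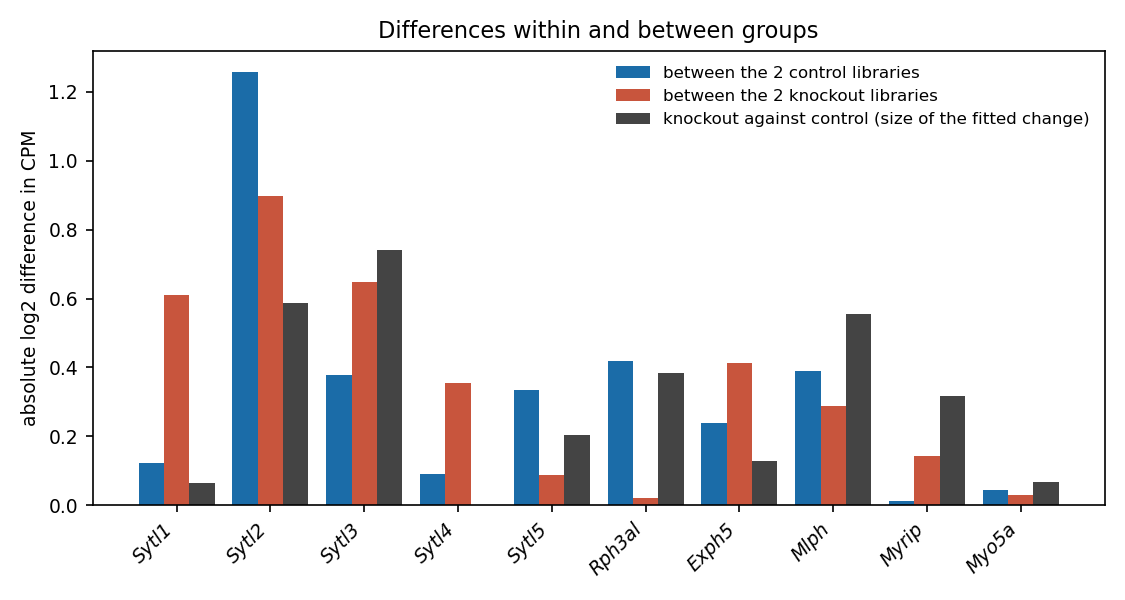
Absolute log2 difference in CPM between the 2 control libraries, between the 2 knockout libraries and between the groups (size of the fitted change) for each effector gene. Of the 10 genes, the black bar exceeds both coloured bars for Sytl3, Mlph, Myrip and Myo5a, an arrangement found for 18.8% of all tested genes.

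The GTPases and their regulators showed no gene past the threshold either. Of 19 listed genes all were tested, 5 had a positive and 14 a negative log2 fold change, and the median was -0.10. Negative values made up 73.7% of this list and 49.4% of all tested genes. Rab27a, the Rab of insulin granules, measured 322 and 267 CPM in control and 280 and 306 CPM in knockout islets. Its CI put the knockout level at 0.789 to 1.25 times control. Rab3a, abundant in neurons and endocrine cells, gave 41.9 and 41.8 CPM against 35.1 and 48.6 CPM, with a CI of 0.752 to 1.33. Rab27b was scarce, at 3.67 and 6.48 CPM in control and 3.74 and 3.98 CPM in knockout islets. Like Sytl2 and Mlph, it was highest in control replicate 2.

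The genes of this list with the smallest p were Rab3b, Rab3d, Rab3il1 and Rab27b. Rab3b gave 36.2 and 28.6 CPM in control and 46.6 and 35.9 CPM in knockout islets, and its log2 fold change was 0.35 ± 0.19. Rab3d, the Rab3 form known from zymogen granules of acinar cells, gave 165 and 189 CPM against 130 and 166 CPM (-0.26 ± 0.16). Its highest library, control replicate 2, was the one with the lowest acinar sum. The remaining 3 libraries had the acinar order, but control replicate 1 (165.2 CPM) and knockout replicate 2 (165.7 CPM) were nearly level. Across all libraries Rab3d had the order of the summed stellate-cell markers, though of none of those markers singly. They summed to 23.1 and 39.1 CPM in control and 21.8 and 25.3 CPM in knockout islets. A part of acinar or stellate-cell content in the Rab3d values was not tested. Rab3il1, which encodes a guanine nucleotide exchange factor, had 10 and 13 counts against 4 and 8 in the knockout group.

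Among 8 further effectors and myosins, 5 were tested and 0 passed, with a median log2 fold change of -0.02. Rims2, a scaffold that binds Rab3 at release sites, gave 110 and 97.5 CPM in control and 110 and 114 CPM in knockout islets. The myosin gene Myo5b stood at -0.08 ± 0.17, Myo7a at -0.04 ± 0.22 and Coro1c, a coronin that binds Rab27a in its GDP form, at -0.02 ± 0.16. Rabphilin (Rph3a) had 1 count in each library, below the floor, Rims1 had 4 to 11 counts and Unc13d 0 to 7, and these 3 were not tested. Among 11 partners at the granule and plasma membrane, 5 had positive and 6 negative values, with a median of -0.04 and 0 called. Snap25, a membrane SNARE, measured 243 and 236 CPM in control and 264 and 305 CPM in knockout islets. Its log2 fold change was 0.25 ± 0.14, with a CI of 0.956 to 1.48 times control. Prkar2a, a regulatory subunit of protein kinase A, stood at -0.13 ± 0.14 and the syntaxin gene Stx2 at -0.20 ± 0.21.

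**Figure D5:**
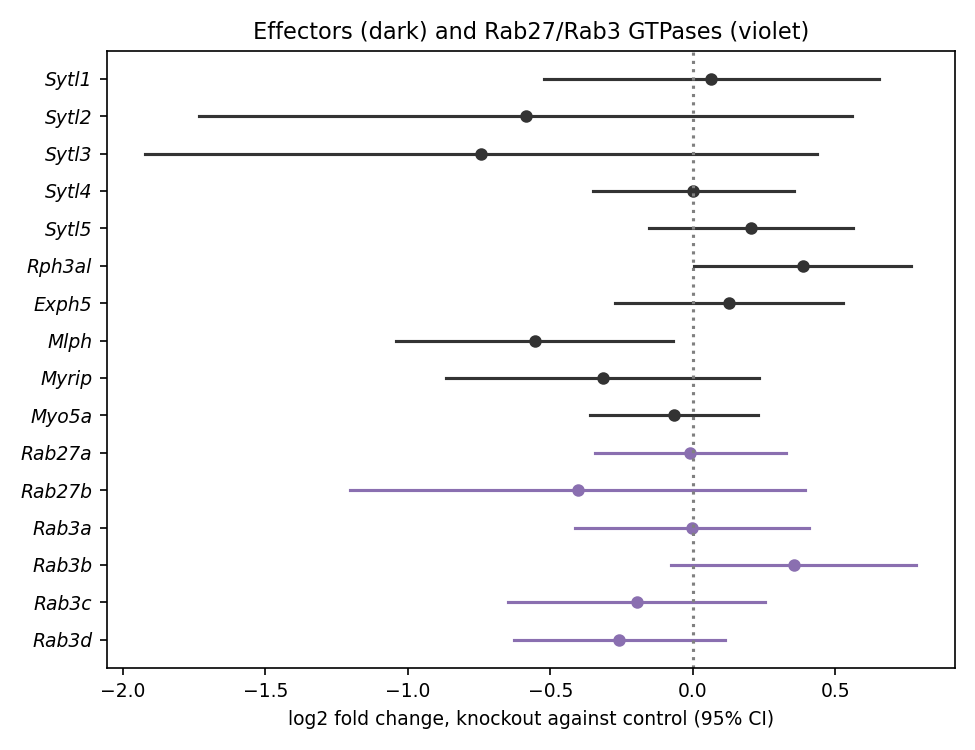
Log2 fold change of knockout against control with its 95% confidence interval for the 10 effector genes and 6 Rab27 and Rab3 genes, from the quasi-likelihood fit of all 4 libraries. The intervals are narrow for abundant genes such as Sytl4, Myo5a and Rab27a and wide for Sytl2, Sytl3 and Rab27b, and none of the genes passed after adjustment.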

How the data were processed

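Islet RNA was measured in 2 control and 2 knockout libraries, grouped by their labels. The authors deposited raw counts per Ensembl gene. Per the submitters' processing notes, reads were handled with HISAT2 and featureCounts on build GRCm39. For versions, annotation, strand use and multi-mapping reads, details were not given in the sources used. Symbols came from GENCODE M21 (GRCm38), which matched 52403 of 52636 identifiers, and exon lengths from the same release.

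Counts were analysed in edgeR 4.0.16 (R 4.3.3) with filterByExpr (minimum count 10), trimmed mean of M-values scaling and a robust two-sided quasi-likelihood F test, Benjamini-Hochberg adjusted over all genes tested. Standard errors and intervals came from the same fit. Alternatives were DESeq2 1.42.0, limma-voom (limma 3.58.1), DESeq2 size factors in edgeR, no filter, replicate blocks and leaving out each library. The pipeline was tested on simulated data. Any 2 libraries differed by more than counting error allows (chi-square over its degrees of freedom, 7.08 to 20.0). Intervals of counts cover counting error only.

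The members and lists were chosen with earlier results of these data known. Named were Tspan7, the 10 effectors, Rab27a, Rab27b, Rab3a and up to 4 genes of smallest p in each of 3 partner lists. Rab3c, Rph3a, Rims1, Unc13d and the overlapping genes were named after their values were seen. Marker sums were likewise set beside single genes after the values were seen. For a measure of likeness between library orders, 4 libraries are too few.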

Additional observations from a re-analysis of the deposited data

How the results depend on the processing

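The count of effector genes called was 0 under all 10 alternatives, and their median log2 fold change ran from -0.21 to 0.06 with 1 library left out. Over all genes the call depended on the setting. With no low-count filter 15 genes were higher and 47 lower. DESeq2 called 6 lower. The block on replicate number gave 1 higher and 5 lower, and no effector among them. Same-numbered libraries of the groups deviated in opposite senses (r = -0.307 over 16924 genes), and pairing control replicate 1 with knockout replicate 2, a choice made after seeing the data, gave 1 gene higher and 1 lower. With 1 library left out, 0 to 33 genes were higher and 1 to 15 lower, the upper counts without control replicate 1. Of 100 effector values under the alternatives, 90 kept their sign. The other 10 belonged to Sytl4, Sytl1, Sytl2 and Exph5. Sytl4 was -0.00165 with DESeq2 size factors in edgeR, -0.00181 with DESeq2, -0.00802 with limma-voom, -0.00866 with the block on replicate number and -0.00870 with the crossed pairs, and with 1 library left out it ran from -0.19 to 0.17, Sytl1 from -0.26 to 0.35, Sytl2 from -1.12 to 0.18 and Exph5 from -0.094 to 0.32. The cause was not tested. An exact permutation of 2 against 2 libraries cannot give a p below 0.333.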
